A study of Mus musculus with 2 samples.

Results

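Hox genes were examined by cluster and by position within the cluster in single cells of the postnatal mouse spinal cord. The members were every gene whose symbol is Hoxa, Hoxb, Hoxc or Hoxd followed by a number alone, which gave 39 of the 32285 genes listed. Of these, 11 belonged to HoxA on chromosome 6, 10 to HoxB on chromosome 11, 9 to HoxC on chromosome 15 and 9 to HoxD on chromosome 2. The cells came from whole spinal cords of FVB mice at postnatal day 4. One library, labelled SMA, held mice of the genotype mSmn-/-, hSMN22tg/0, the severe Taiwanese model of spinal muscular atrophy, in which mouse Smn is disrupted in every cell. The other, labelled Con, held mSmn+/-, hSMN22tg/0 littermates, so that both groups carried the human SMN2 transgene and at least 1 disrupted mouse allele. Several littermates were pooled into each library and their sexes were not stated. With 1 library per group no test was possible, and genotype, pooled animals, dissection and library preparation cannot be told apart.

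Hox genes encode homeodomain transcription factors that give cells their position along the head-to-tail axis. Within each of the 4 clusters the genes lie in the order in which they are used along the body. Those with low paralogue numbers are expressed from the hindbrain and neck downwards, and those with high numbers are restricted to lumbar, sacral and tail levels. In the spinal cord they are best known for assigning motor neurons to the columns and pools that serve a limb or the trunk, and glia and fibroblasts keep a Hox code of their own place of origin.

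The clusters also encode microRNAs, which are shown here because their seeds pair with transcripts of the same clusters. The mature sequences were taken from RefSeq on GRCm38.p6, and the capitals mark the seed, bases 2 to 8. The microRNAs themselves were not measured in these libraries. The miR-196 genes lie next to the group 9 genes of HoxA, HoxB and HoxC, and the miR-10 genes lie next to the group 4 genes of HoxB and HoxD.
miR-196a-5p: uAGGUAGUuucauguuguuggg
miR-196b-5p: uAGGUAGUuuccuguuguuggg
miR-10a-5p: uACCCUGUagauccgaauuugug
miR-10b-5p: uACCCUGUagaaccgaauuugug
Both miR-196 microRNAs share 1 seed and both miR-10 microRNAs share another. A match to the miR-196 seed was found in the annotated 3′ untranslated region of 9 of the 39 Hox genes, against 5.93% of 21685 protein-coding genes. Among them were Hoxb1, Hoxa4, Hoxa5, Hoxb6, Hoxa7, Hoxb7, Hoxc8 and Hoxa9, none of the matches lay in a gene above paralogue group 9, and Hoxa7 held 4 matches. For the miR-10 seed the count was 4 of 39, Hoxd1, Hoxa3 and Hoxb3 among them, against 12.1% of all genes. Hoxb8 held no full seed match, but its 3′ untranslated region carried the site with the longest pairing to miR-196a among the Hox genes, at chr11:96284888-96284909 on the plus strand. In it 21 of 22 bases were complementary to the microRNA, with the mismatch in lower case at position 18 from the 5′ end of the site, and the next best Hox gene reached 15.
Hoxb8 site: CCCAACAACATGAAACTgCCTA
A match is a description of the sequence and not a measure of repression.

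The upstream windows of 3 posterior genes of HoxA and HoxD are shown next, since the library comparison turned on paralogue groups 10 and 11. Each is the 250 bases before a RefSeq gene start on GRCm38.p6, read on the strand of the gene. Capitals mark TTTATG or its reverse complement CATAAA, letters contained in many caudal-type homeobox (Cdx) binding sites.
Hoxa10 (chr6:52240855-52241104, minus strand): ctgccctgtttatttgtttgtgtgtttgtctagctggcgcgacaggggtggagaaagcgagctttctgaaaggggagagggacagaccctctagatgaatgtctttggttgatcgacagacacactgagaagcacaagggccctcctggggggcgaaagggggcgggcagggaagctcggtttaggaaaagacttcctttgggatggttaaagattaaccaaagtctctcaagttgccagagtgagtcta
Hoxa11 (chr6:52245811-52246060, minus strand): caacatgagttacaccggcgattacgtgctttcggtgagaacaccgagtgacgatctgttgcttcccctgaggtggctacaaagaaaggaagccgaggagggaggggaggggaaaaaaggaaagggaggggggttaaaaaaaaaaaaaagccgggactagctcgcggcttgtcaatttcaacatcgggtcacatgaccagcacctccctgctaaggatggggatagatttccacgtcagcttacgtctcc
Hoxd11 (chr2:74679308-74679557, plus strand): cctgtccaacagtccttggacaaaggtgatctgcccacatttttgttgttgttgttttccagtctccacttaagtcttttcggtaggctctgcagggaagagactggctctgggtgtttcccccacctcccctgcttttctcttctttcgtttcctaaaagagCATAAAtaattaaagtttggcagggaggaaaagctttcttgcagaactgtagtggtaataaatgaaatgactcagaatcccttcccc
Hoxa10 and Hoxd11 have 2 windows each in the table, of which 1 is shown. The Hoxa11 window and both Hoxa10 windows hold no such match. The Hoxd11 window shown holds 1, which starts 87 bases before the gene start, and the other Hoxd11 window (chr2:74682073-74682322) holds 0. Over all windows the letters occurred in 5 of 24 Hox windows (20.8%), those of Hoxa7, Hoxb8, Hoxd11, Hoxd3 and Hoxd4, and in 10.8% of 32851 windows of all genes. Hox windows were also richer in CG dinucleotides, with a median of 12.5 against 6 per window. Only 22 Hox genes had a window.

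The libraries held 26921 barcodes and 85872075 UMIs (SMA) and 25419 barcodes and 97894084 UMIs (Con). A UMI, or unique molecular identifier, tags 1 captured RNA molecule. Of all barcodes, 8163 were listed in both libraries, 30.3% of those of SMA and 32.1% of those of Con. They were left out of the library labelled SMA, and results that move when they are kept are given with both values. Of the Con cells with at least 5000 UMIs, nearly all were listed in the library labelled SMA too, for instance 1086 of 1086 astrocyte-like cells. After filtering, 6787 and 8918 cells were kept, of which 6398 and 8191 fell into a class with at least 3 of its defining markers, and median depths were 6109 and 6229 UMIs. Smn1, the targeted gene, stood at 48.1 counts per 1000000 UMIs (CPM; 46.2 to 50.2) in the library labelled SMA and at 43.8 (42.2 to 45.5) in the library labelled Con. Whether the counted 3′ tags lie in the disrupted part of the gene is not given in the sources used here, so the label was not borne out by this gene.

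The Hox genes were well represented. Named cells of SMA held 32707 Hox UMIs and those of Con 38121. Of the 39 members, 27 had at least 100 UMIs in the named cells of each library and 12 did not. No UMI of Hoxa13 or Hoxb13 was counted in any kept cell, and Hoxc12, Hoxc13, Hoxd12 and Hoxd13 had 1, 4, 1 and 1 over both libraries. Groups 12 and 13, which act at the tip of the tail and in the distal limb, were therefore at or near 0, and groups 10 and 11 were the most posterior groups that could be compared. Forebrain and midbrain factors (8 genes, among them Otx2) gave 13 and 28 UMIs in all named cells of SMA and Con. Exons of Hoxc5 overlap those of Hoxc10 on the same strand, and exons of Hoxd3 overlap those of Hoxd4, so that their reads may be shared or lost. The other members carried 91.9% and 89.3% of Hox UMIs.

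Levels below are counts per 1000000 UMIs of a class (CPM), summed over the cells of the class. Each molecule is tagged once at its 3′ end, so that values were not divided by gene length. Intervals are 95% intervals, exact Poisson for levels, Clopper-Pearson for shares and conditional binomial for ratios, and all of them cover counting error only. Classes are called "-like" because they were named from markers, and no Hox gene took part in the clustering or the naming.

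Among the 11 classes with 50 or more cells in both libraries, Hox RNA was highest in astrocyte-like, ependymal-like and OPC-like cells. In the library labelled Con the summed Hox level was 1636 CPM (1611 to 1661) in astrocyte-like cells (n = 1550 cells), 1413 (1360 to 1467) in ependymal-like cells, which line the central canal, and 995 (975 to 1015) in oligodendrocyte precursor (OPC)-like cells. The library labelled SMA gave 1485 (1458 to 1511), 1340 (1305 to 1376) and 924 (906 to 943). Fibroblast-like cells led by Slc6a13, a transporter of meningeal and perivascular fibroblasts, had 796 CPM in Con and 734 in SMA. Mural-like cells, the pericytes and smooth muscle of vessels, had 774 and 729.

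Later cells of the oligodendrocyte lineage ranked below these fibroblast-like and mural-like cells. Committed oligodendrocyte precursor (COP)-like cells had 464 CPM in Con and 471 in SMA, and oligodendrocyte-like cells had 396 and 375. Schwann-like cells had 290 and 343, and endothelial-like cells 231 and 238. Microglia-like cells had 98.2 and 99.8 and erythroid-like cells 83.8 and 76.5, the lowest values of the 11 classes. The order of the 11 classes was the same in both libraries. Intervals of fibroblast-like and mural-like cells overlapped in both libraries, and those of oligodendrocyte-like and Schwann-like cells overlapped in SMA but not in Con. In log2 terms, astrocyte-like cells exceeded microglia-like cells by 4.06 in Con and 3.89 in SMA.

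**Figure D1:**
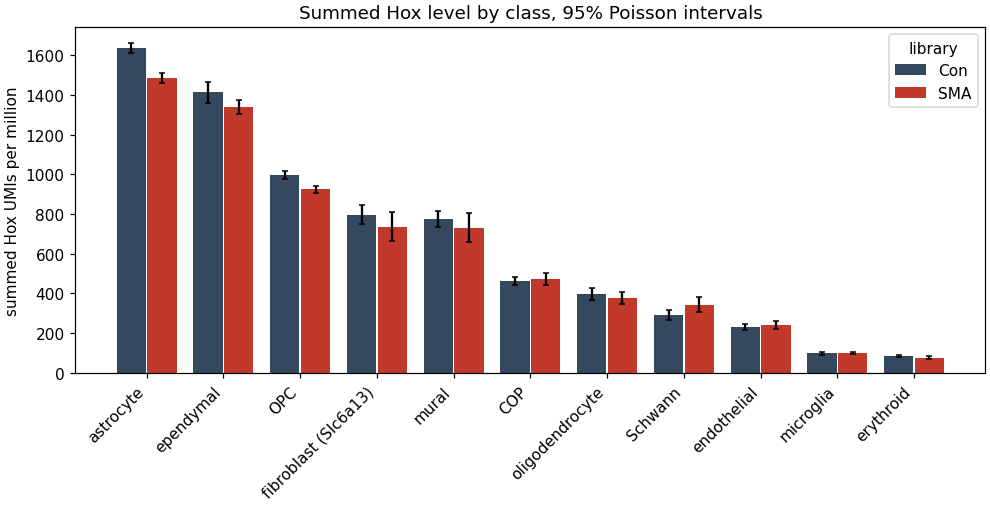
Summed level of all 39 Hox genes, in CPM on the vertical axis, for the 11 classes that held 50 or more cells in both libraries. Dark bars are the library labelled Con and red bars the library labelled SMA, with 95% Poisson intervals. Bars descend from 1636 and 1485 in astrocyte-like cells to 83.8 and 76.5 in erythroid-like cells.

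Most single cells of the neural classes held a Hox UMI. With every cell thinned to 2000 UMIs, a Hox UMI was present in 95.2% of astrocyte-like cells of the library labelled Con and 93% of those labelled SMA. The shares were 88.5 and 91.0% in ependymal-like cells and 84.3 and 81.4% in OPC-like cells. Microglia-like cells, which arise from the yolk sac and are not patterned by the neural tube, gave 14.8 and 12.9%, and erythroid-like cells 12.4 and 12.7%. These last shares are the background against which the others are read. Without thinning, the shares ran from 98.0 to 99.7% in the 3 neural classes and from 29.0 to 33.9% in microglia-like and erythroid-like cells, whose median depths of 6922 to 9756 UMIs were above those of the neural classes (5599.5 to 6331). At most 37 cells of any of these classes were too shallow to thin.

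Leading Hox genes were shared between classes. Hoxa7, a trunk-level gene, led in OPC-like cells with 12.7% of Hox UMIs in Con and 13.9% in SMA, and in ependymal-like cells with 13.5 and 14.0%. It also led in endothelial-like and oligodendrocyte-like cells of both libraries. Hoxc8, which marks brachial and thoracic levels, led in astrocyte-like cells with 12.5 and 13%, and likewise in microglia-like (12.8 and 12.9%) and erythroid-like cells (10.5 and 11.6%), the classes of background level. Hoxb2, best known from the hindbrain, stood at 136 and 168 CPM in astrocyte-like cells, at 57.3 and 52.5 in OPC-like cells and at 12.9 and 12.8 in COP-like cells. In COP-like cells Hoxb7 took 15.9% of Hox UMIs in Con and Hoxa7 17.2% in SMA.

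Single members stood apart from their neighbours in a class-dependent way. Hoxb9, a thoracic gene, was at 3.15 CPM (2.11 to 4.53) in OPC-like cells of Con and 4.65 (3.45 to 6.13) in those of SMA, although Hoxa9 and Hoxc9, paralogues of the same group, stood at 51.2 to 75.5 in the same cells. In COP-like cells Hoxb9 was at 2.11 and 2.37. In Schwann-like cells it reached 35.9 (27.9 to 45.4) and 53.8 (39.6 to 71.3), and in astrocyte-like cells 44.1 and 23.6. Its intervals in OPC-like cells lay below those in Schwann-like and astrocyte-like cells in both libraries.

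Hoxd1, a group 1 gene that in mouse is best known from sensory neurons, was found almost only in oligodendrocyte-like cells. They held 9 of its UMIs in Con and 16 in SMA, 5.10 CPM (2.33 to 9.68) and 11.1 (6.37 to 18.1). OPC-like cells, with many more UMIs, held 0 in both libraries, and astrocyte-like cells held 1 in Con and 0 in SMA. Its paralogue Hoxb1 had 22 and 16 UMIs in astrocyte-like cells. The counts of Hoxd1 and Hoxb1 are small.

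Clusters were used unequally too. HoxB gave 54.7% of Hox UMIs in Schwann-like cells of Con and 53.3% of those of SMA, but 24.6 and 26.5% in OPC-like cells, where HoxA gave 38 and 38.8%. HoxD was the smallest contributor in the 3 neural classes, from 5.26% in astrocyte-like cells of SMA to 11.5% in ependymal-like cells of Con, and gave only 2.33 and 2.29% in Schwann-like cells. Ependymal-like cells also had the highest Hoxd10 of the 11 classes, 30.8 and 19.4 CPM, against 10.2 and 6.58 in astrocyte-like cells.

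**Figure D2:**
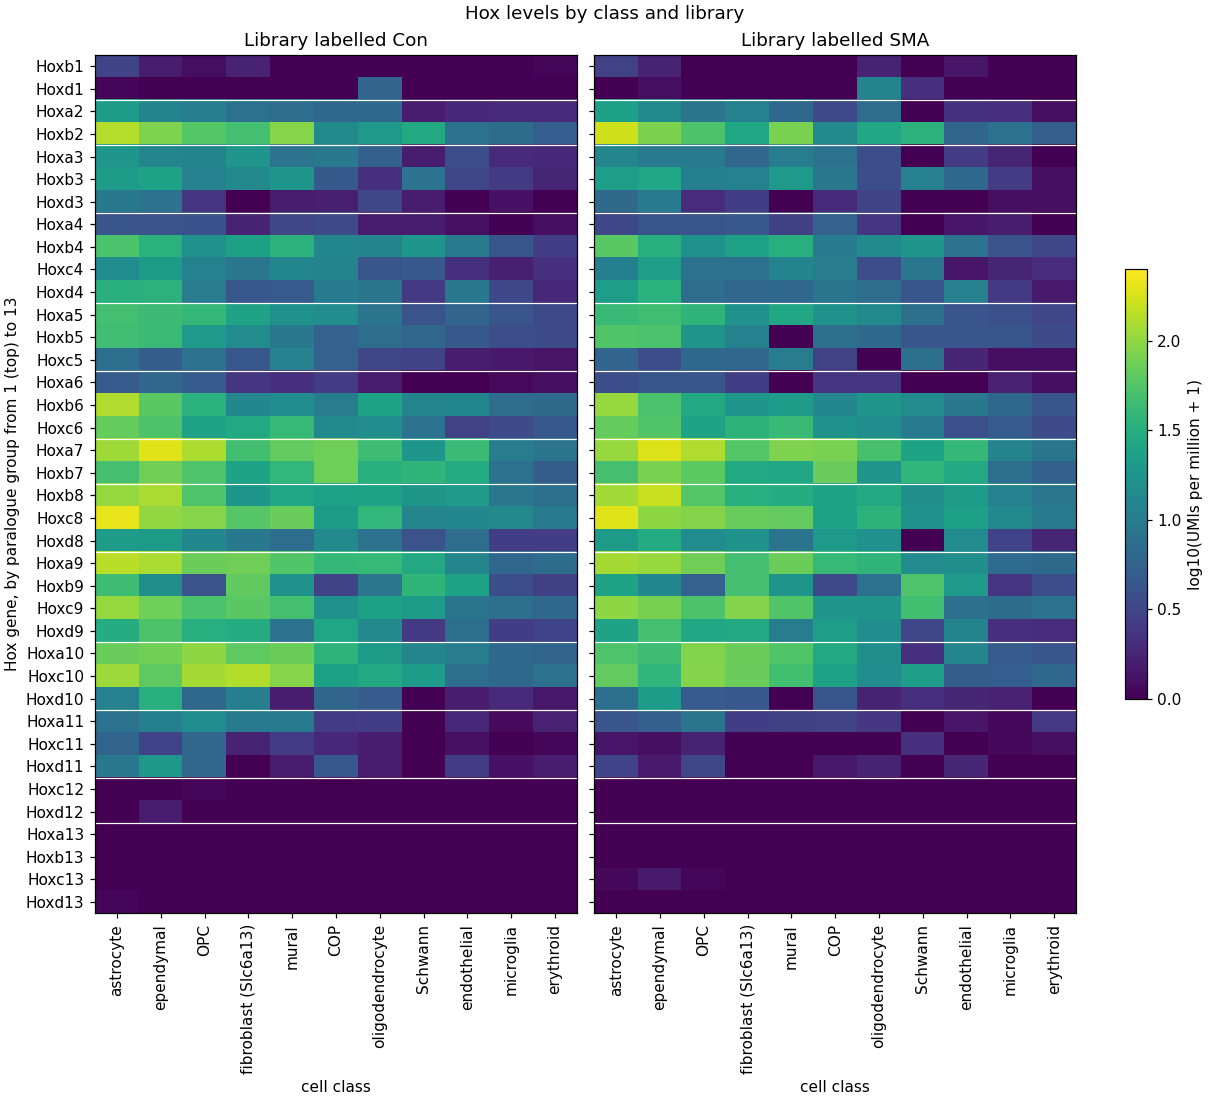
Level of the Hox genes (rows, by paralogue group from 1 at the top to 13) in the 11 classes (columns), as log10 of CPM plus 1, in the library labelled Con on the left and SMA on the right. White lines part the paralogue groups. Hoxb9 is dark in OPC and COP columns, Hoxd1 is bright only in oligodendrocytes, and the rows of group 11 are brighter in the left panel in the OPC, astrocyte and ependymal columns.

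The comparison of the libraries asks whether the Hox code of a given cell class differs between them. How much of each level of the cord entered each library is not given in the sources used here. The part of this in any difference was not tested. The summed level was slightly lower in the library labelled SMA in the 3 of the 11 compared classes that had the highest Hox level. The log2 ratio of SMA over Con was -0.11 (-0.15 to -0.06) in OPC-like cells, -0.14 (-0.17 to -0.11) in astrocyte-like cells and -0.08 (-0.14 to -0.01) in ependymal-like cells. In astrocyte-like cells the ratio was -0.10 with the shared barcodes kept and -0.08 relative to the median gene of the class. Relative to the median gene the ependymal-like ratio was -0.03, and without members of overlapping exons the ratios were -0.06 in OPC-like, -0.09 in astrocyte-like and -0.05 in ependymal-like cells. Schwann-like cells had a ratio above 0, 0.24 (0.03 to 0.44), and the intervals of the other 7 classes included 0.

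By position, the ratio in these 3 classes was lowest at the posterior end. In groups 10 to 13 it was -0.37 (-0.45 to -0.28) in OPC-like, -0.67 (-0.77 to -0.56) in astrocyte-like and -0.93 (-1.13 to -0.73) in ependymal-like cells. Other positions differed less and not all in one direction. In OPC-like cells the ratio was -0.18 (-0.31 to -0.04) in groups 1 to 3, -0.18 (-0.28 to -0.07) in groups 4 to 6 and 0.04 (-0.02 to 0.10) in groups 7 to 9. In astrocyte-like cells it was 0.13 (0.05 to 0.22), -0.11 (-0.18 to -0.04) and -0.12 (-0.17 to -0.07), and in ependymal-like cells all 3 intervals included 0. In the other 8 classes groups 10 to 13 had the lowest ratio of the 4 bands in 5, COP-like, Schwann-like, microglia-like, mural-like and oligodendrocyte-like cells. The ratio was -0.75 (-1.19 to -0.33) in mural-like and -0.78 (-1.33 to -0.26) in oligodendrocyte-like cells, and the intervals of the other 3 included 0. Endothelial-like cells were lowest in groups 4 to 6, at -0.19 against -0.14, with both intervals including 0. In Slc6a13-led fibroblast-like cells the ratio was -0.59 (-1.20 to -0.01) in groups 1 to 3 and -0.56 (-0.93 to -0.21) in groups 10 to 13, and in erythroid-like cells it was -0.59 and -0.38, with both intervals including 0.

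As a share, groups 10 to 13 gave 24.8% of Hox UMIs in OPC-like cells of Con and 20.7% in those of SMA, a difference of -4.12 percentage points (-5.32 to -2.93). In astrocyte-like cells the shares were 12.9 and 8.93% (-3.93, from -4.64 to -3.20), and in ependymal-like cells 14.3 and 7.90% (-6.36, from -7.89 to -4.87). The share was lower in SMA in each of the 11 classes, among them microglia-like and erythroid-like cells, the classes of background level. The size depended on the members with overlapping exons, since without Hoxc10, Hoxc5, Hoxd3 and Hoxd4 the difference was -2.50 points in OPC-like cells and -2.01 in astrocyte-like cells. It was -3.06 in astrocyte-like cells with the shared barcodes kept.

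**Figure D3:**
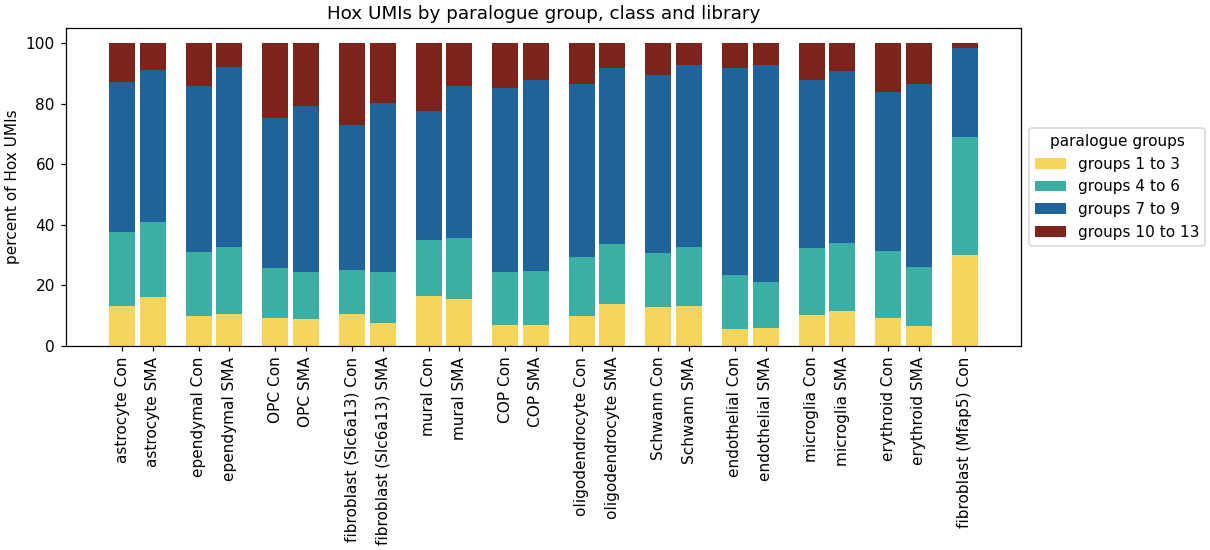
Share of Hox UMIs, in percent, from paralogue groups 1 to 3, 4 to 6, 7 to 9 and 10 to 13 in each class and library. The dark top segment, groups 10 to 13, is smaller in the bar of SMA than in that of Con for each of the 11 paired classes (24.8 against 20.7% in OPC-like cells), and is 1.56% in the Mfap5-led fibroblast-like cluster of Con.

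Group 10 consists of Hoxa10, Hoxc10 and Hoxd10, which act at lumbar levels in the patterning of the hindlimb motor columns. Its summed level in OPC-like cells was 223 CPM in Con and 181 in SMA, a log2 ratio of -0.30 (-0.39 to -0.21). In astrocyte-like cells it was 190 and 127 (-0.59, from -0.69 to -0.48), and in ependymal-like cells 171 and 100.2 (-0.77, from -0.98 to -0.56). The group was lower in SMA in 11 of 11 classes, with the interval below 0 in 6. The 11 classes include microglia-like and erythroid-like cells, both of background level. The ratio of group 10 lay closest to 0 in endothelial-like cells, at -0.02.

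Hoxc10 was the most counted member of group 10 in astrocyte-like and OPC-like cells. It had 1096 UMIs in OPC-like cells of Con and 963 in those of SMA, 119 and 89.5 CPM, a ratio of -0.41 (-0.54 to -0.29). In astrocyte-like cells it had 1145 and 544 UMIs, 110 and 66.3 CPM (-0.73, from -0.88 to -0.58), and in ependymal-like cells 63.2 and 37.0 CPM (-0.77). It was lower in SMA in 9 of 11 classes, with the interval below 0 in 6. Hoxa10 had ratios of -0.17 in OPC-like cells, -0.38 in astrocyte-like cells and -0.81 in ependymal-like cells. Hoxd10, of lower level, had -0.45 (-1.08 to 0.17), -0.63 (-1.13 to -0.14) and -0.67 (-1.17 to -0.16).

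Group 11, Hoxa11, Hoxc11 and Hoxd11, is needed for the kidney and the forearm, and differed more. In OPC-like cells 221 UMIs in Con stood against 111 in SMA, a log2 ratio of -1.22 (-1.56 to -0.89). In astrocyte-like cells the counts were 209 and 47 (-1.81, from -2.30 to -1.35), and in ependymal-like cells 58 and 21 (-2.53, from -3.33 to -1.79). Group 11 was lower in SMA in 9 of 11 classes and higher in Schwann-like and erythroid-like cells, where it had 0 to 12 UMIs. The astrocyte-like value moved to -1.25 with the shared barcodes kept.

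All members of group 11 shared this direction in the 3 neural classes. Reads of Hoxa11 may not be separable from those of Hoxa11os, its antisense gene, as given below. Hoxa11 had 125 and 79 UMIs in OPC-like cells of Con and SMA, 72 and 27 in astrocyte-like cells and 19 and 18 in ependymal-like cells, which are 9.76 and 4.41 CPM. Hoxc11 had 48 and 8 UMIs in OPC-like cells, 52 and 3 in astrocyte-like cells and 4 and 1 in ependymal-like cells. Hoxd11 had 48 and 24, 85 and 17, and 35 and 2. Every one of these intervals of the ratio lay below 0 apart from that of Hoxc11 in ependymal-like cells.

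Paralogue group 9, directly before, showed no common direction when summed, being lower in SMA in 6 classes and higher in 5. Its members differed from each other. The interval lay below 0 in 4 classes for Hoxa9, 2 for Hoxd9, 1 for Hoxb9 and 0 for Hoxc9. In the same order it lay above 0 in 0, 0, 1 and 2 classes. Within group 9, Hoxb9 in astrocyte-like cells had the largest deficit of the 3 neural classes. It had 460 UMIs in Con and 194 in SMA, 44.1 and 23.6 CPM, a ratio of -0.90 (-1.15 to -0.66). Several other HoxB genes went the other way in astrocyte-like cells. Hoxb2 stood at 136 CPM in Con and 168 in SMA (0.31, from 0.20 to 0.42), and Hoxb4, Hoxb5 and Hoxb8 had ratios of 0.24, 0.27 and 0.15 with intervals above 0. Hoxb8 was also higher in ependymal-like cells, 0.34 (0.12 to 0.56).

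By single genes, few members were more than 1.5-fold apart. In OPC-like cells, 2 of 23 members with at least 100 UMIs over both libraries were at least 1.5-fold lower in SMA, Hoxa11 and Hoxd4, where 1.51% of 10692 genes were. Hoxd4 was no longer among them with a mitochondrial limit of 20%, where it had under 100 UMIs, or with cells of at least 5000 UMIs, and the count was then 1. In astrocyte-like cells it was 7 of 27, against 2.97% of 10084 genes. They included Hoxa3 and Hoxd4 at the anterior end and Hoxb9, Hoxc10, Hoxd10 and Hoxd11 at the posterior end. With the shared barcodes kept the count was 4 of 28. In ependymal-like cells it was 3 of 20, Hoxa10, Hoxc10 and Hoxd10, against 2.63% of 6799 genes.

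No member was at least 1.5-fold higher in SMA in these classes, where 1.76, 1.61 and 2.04% of all genes were in OPC-like, astrocyte-like and ependymal-like cells. Elsewhere the count lower was 2 of 6 in Slc6a13-led fibroblast-like cells (Hoxa9 and Hoxc10, against 14.5% of genes) and 1 of 7 in mural-like cells (Hoxc10, against 7.5%). It was 0 of 10 in COP-like, 0 of 2 in Schwann-like, 0 of 4 in endothelial-like, 0 of 1 in erythroid-like, 0 of 3 in microglia-like and 0 of 3 in oligodendrocyte-like cells, where 2.13, 4.74, 4.72, 3.98, 1.37 and 3.83% of genes were lower. No member was 1.5-fold higher in any of these 8 classes, where the share of genes higher was 8.9% in Slc6a13-led fibroblast-like, 4.71% in mural-like, 3.4% in COP-like, 5.94% in Schwann-like, 4.61% in endothelial-like, 5.57% in erythroid-like, 3.68% in microglia-like and 13.2% in oligodendrocyte-like cells. With so few members tested, these counts of 0 are a description. Summed by cluster, HoxC was 1.70-fold higher in SMA in Schwann-like cells (0.76, from 0.36 to 1.16) and HoxD 1.56-fold higher in endothelial-like cells (0.64, from 0.20 to 1.09). The median member had a log2 ratio of -0.13 in OPC-like cells, -0.26 in astrocyte-like cells and -0.02 in ependymal-like cells, beside -0.02, -0.06 and -0.05 for the median gene. Hoxa3 was of low level, at 17.1 and 11.3 CPM in astrocyte-like cells of Con and SMA.

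**Figure D4:**
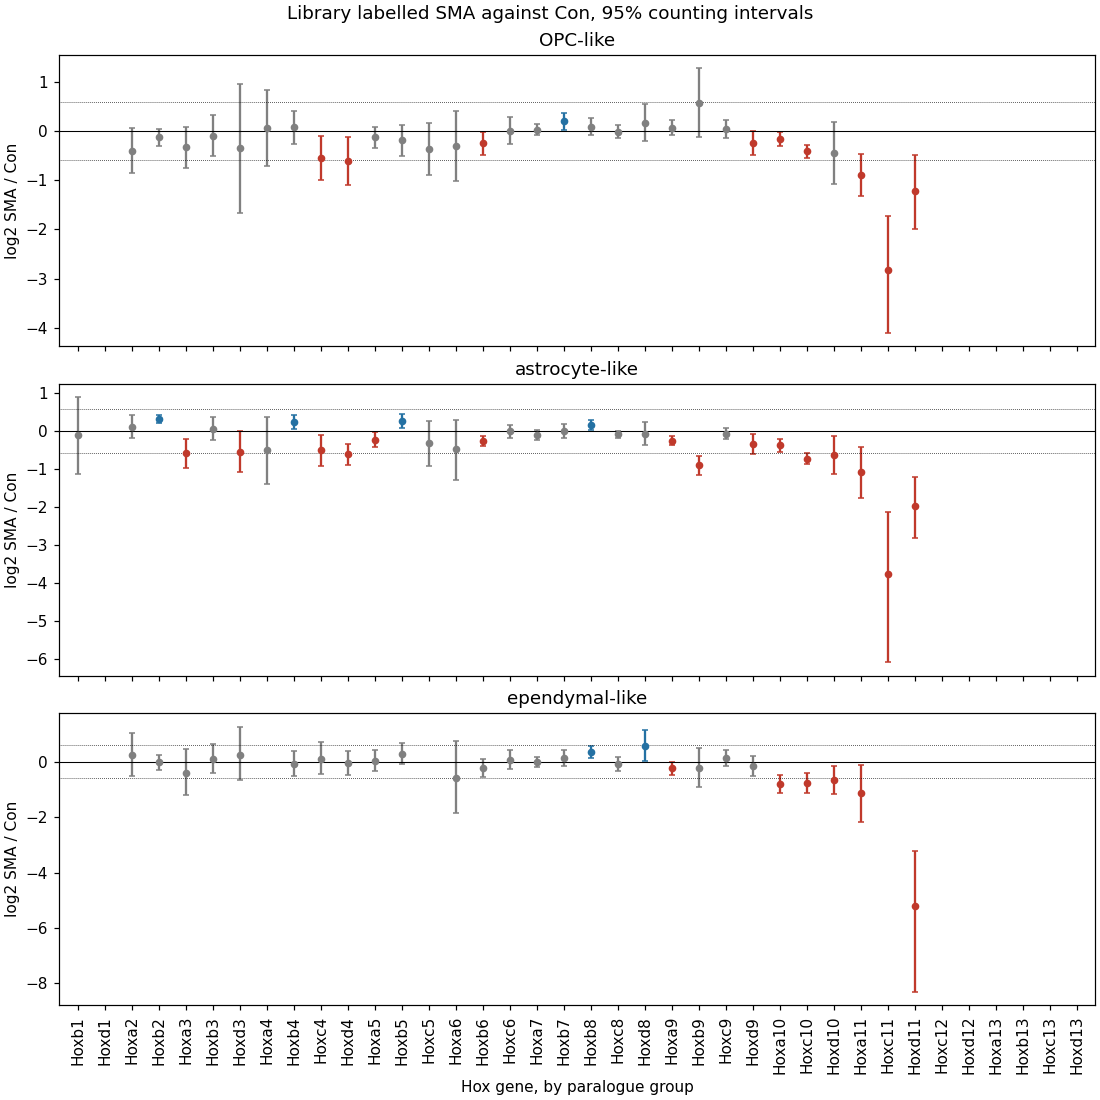
Log2 ratio of SMA over Con for single Hox genes, ordered by paralogue group, in OPC-like, astrocyte-like and ependymal-like cells, with 95% counting intervals. Members with at least 20 UMIs over both libraries are drawn, red where the interval lies below 0 and blue where it lies above, and dotted lines mark 1.5-fold. Points of groups 10 and 11 lie below 0, down to -5.20 for Hoxd11 in ependymal-like cells. Points of groups 1 to 9 lie on both sides of 0, and several in astrocyte-like cells are below it, such as Hoxb9 at -0.90.

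The posterior difference was also seen cluster by cluster. OPC-like, astrocyte-like and ependymal-like cells comprised 11 clusters. These divide the same cells of the same libraries, so they are not replicates and the counts are a description. Groups 10 to 13 were lower in SMA in all 11, with the interval below 0 in 10, and group 11 was lower in all 11, with the interval below 0 in 9. Ratios of groups 10 to 13 ran from -0.24 in the OPC-like cluster led by histone genes to -0.98 in the astrocyte-like cluster led by Cidea and Gfap. The ciliated ependymal-like cluster (Ccdc153, Stoml3) gave -0.95 and the other, led by Pdyn and Calb1, gave -0.89.

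The share of cells with a posterior Hox UMI was lower in SMA as well. With cells thinned to 2000 UMIs, a UMI of groups 10 to 13 was present in 40.0% (37.6 to 42.6) of OPC-like cells of Con and 30.8% (28.7 to 33.0) of those of SMA. The shares were 32.1 and 21.2% in astrocyte-like cells and 33.3 and 19.8% in ependymal-like cells, beside 2.58 and 1.33% in microglia-like and 2.87 and 2.44% in erythroid-like cells. Before thinning they were 72.4 and 60.7%, 66.0 and 48.2%, and 67.1 and 43.3% in the 3 neural classes. Group 11 was present in 5.15 and 1.65% of OPC-like, 3.62 and 0.711% of astrocyte-like and 7.29 and 0.483% of ependymal-like cells. In the background classes of SMA it was present in 0.732% (0.151 to 2.12) of erythroid-like cells, 3 of 410, and in 0 of 1050 microglia-like cells (0 to 0.351%). The intervals of astrocyte-like (0.326 to 1.35%) and ependymal-like cells (0.0997 to 1.41%) of SMA overlapped both of these, and that of OPC-like cells of SMA (1.11 to 2.34%) overlapped that of erythroid-like cells. Before thinning the shares in SMA were 3.38% in astrocyte-like and 2.87% in ependymal-like cells, beside 1.44% in erythroid-like and 0.190% in microglia-like cells. A UMI of groups 1 to 3 was present in 34.0% (31.6 to 36.4) and 33.6% (31.0 to 36.2) of astrocyte-like cells, in 15.8 and 15.3% of OPC-like cells and in 23.3 and 23.3% of ependymal-like cells.

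Cells were then divided by whether they held a UMI of groups 10 to 13 after thinning, to ask whether the rest of the Hox code differed between them. At 2000 UMIs the summed level of groups 1 to 9 was slightly higher in cells with a posterior UMI in OPC-like and astrocyte-like cells. The log2 ratio was 0.23 in SMA and 0.15 in Con for OPC-like cells, 0.17 and 0.10 for astrocyte-like cells and 0.16 and 0.02 for ependymal-like cells, where both intervals included 0. With cells thinned to 1000 UMIs the interval included 0 in 5 of these 6 comparisons. The ratio was then 0.06 (-0.16 to 0.27) in OPC-like and 0.01 (-0.21 to 0.23) in astrocyte-like cells of SMA, 0.19 (-0.00286 to 0.386) in OPC-like cells of Con and -0.06 (-0.41 to 0.28) in ependymal-like cells of Con. It stayed above 0 in astrocyte-like cells of Con, at 0.19 (0.05 to 0.33).

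Among the genes outside the clusters, 4 of 4863 (0.0823%) were at least 1.5-fold apart in the same direction in both libraries in OPC-like cells, 1 of 3530 (0.0283%) in astrocyte-like cells and 3 of 990 (0.303%) in ependymal-like cells. Zfp950 and Pop4 were higher in OPC-like cells with a posterior UMI. The other calls were haemoglobin genes, Hbb-bs, Hbb-bt, Hba-a1 and Hba-a2, all lower in cells with a posterior UMI. Hbb-bs in ependymal-like cells had a log2 ratio of -2.55 in Con and -4.33 in SMA. The part of red cell RNA in this division was not tested.

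Fibroblast-like cells formed a pair of clusters with different Hox codes in the library labelled Con. The Slc6a13-led cluster (168 cells) had 1141 Hox UMIs and the Mfap5-led cluster (434 cells) had 321, 796 against 236 CPM. Both expressed the collagen genes that define fibroblasts, Col1a1 at 5403 and 5976 CPM. Mfap5, a microfibril protein, and Timp1, an inhibitor of matrix proteases, were higher in the second. The library labelled SMA held 2 cells of the Mfap5-led cluster, so that this comparison is within Con, and cells of the clusters differed in depth, with medians of 8444 and 2802 UMIs.

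The clusters differed most in their posterior Hox genes. Groups 1 to 3 gave 83.7 CPM in the Slc6a13-led and 70.7 in the Mfap5-led cluster (log2 ratio of Mfap5 over Slc6a13 -0.24, from -0.65 to 0.16), and groups 4 to 6 gave 115 and 92.0 (-0.32, from -0.67 to 0.02). Groups 7 to 9 gave 381 and 69.9 (-2.45), and groups 10 to 13 gave 309 and 5 UMIs, 58.6-fold lower in the Mfap5-led cluster (-5.87, from -7.50 to -4.63). They were 27.1 and 1.56% of Hox UMIs.

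Hoxb2 was the leading member in the Mfap5-led cluster, with 76 UMIs and 23.7% of its Hox UMIs, at 55.9 CPM against 46.7. Hoxc4, a cervical gene, was higher in it, with 23 UMIs against 11 (1.14, from 0.05 to 2.33). Hoxb9 had 0 UMIs against 92 and was at least 29.1-fold lower by a floor of 3 UMIs, and Hoxd9 had 0 against 42 and was at least 13.3-fold lower. Hoxa9 had 2 against 107, Hoxc10 3 against 191 and Hoxa10 1 against 90. Hoxc9, in contrast, still gave 18 UMIs against 86. Of the Con cells with at least 5000 UMIs, only 2 of 70 (2.86%) of the Mfap5-led cluster had a barcode listed in the library labelled SMA, whereas all 150 of the Slc6a13-led cluster did.

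**Figure D5:**
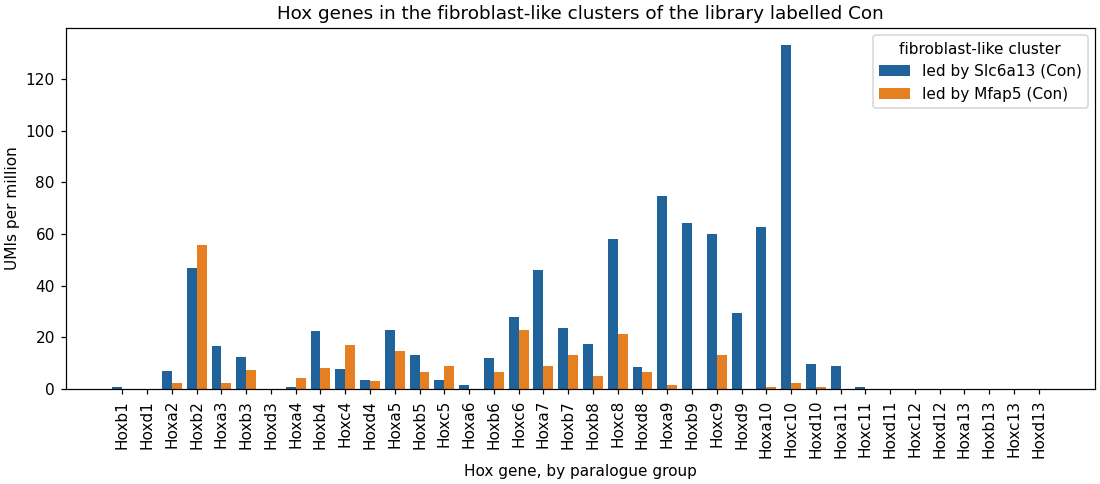
Level of single Hox genes, in CPM, in the Slc6a13-led (blue) and Mfap5-led (orange) fibroblast-like clusters of the library labelled Con, ordered by paralogue group. Orange bars reach 55.9 at Hoxb2 and are near 0 from group 10 on, where the blue bar of Hoxc10 stands at 133.

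The other genes of the Hox system were examined with lists of cofactors, axial regulators, chromatin regulators and noncoding genes of the clusters. TALE homeodomain proteins (Pbx, Meis and Pknox) bind DNA together with Hox proteins. Of 9 with at least 100 UMIs in OPC-like cells none was 1.5-fold apart, nor was any of 8 in astrocyte-like cells. Of all genes 1.51% were lower and 1.76% higher in OPC-like cells and 2.97 and 1.61% in astrocyte-like cells, so that counts of 0 among so few genes are a description. Of 6 in ependymal-like cells Meis3 was lower in SMA, 24.1 and 13.5 CPM (-0.84), where 2.63% of all genes were. None was higher, where 2.04% of all genes were. The list's median ratio was 0.07, -0.05 and -0.01 in the 3 classes.

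Retinoic acid receptors and Gdf11 set Hox boundaries along the axis. None of 4 such genes was 1.5-fold apart in OPC-like cells, where 1.51% of all genes were lower and 1.76% higher, and 1 of 3 in astrocyte-like cells was lower in SMA, where 2.97% of all genes were. The list's median ratio was 0.02 and -0.01. The gene lower was Rarb, a receptor and a target of retinoic acid, at 7.87 and 3.90 CPM (-1.01, from -1.65 to -0.41), and it had a ratio of -0.56 (-0.96 to -0.16) in OPC-like cells. None of the list reached 100 UMIs in ependymal-like cells.

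Polycomb proteins keep Hox genes silent and trithorax proteins keep them active. Of this list, 2 of 13 genes were at least 1.5-fold higher in SMA in OPC-like cells, 0 of 14 in astrocyte-like cells and 1 of 11 in ependymal-like cells, and none was lower. Of all genes 1.76, 1.61 and 2.04% were higher and 1.51, 2.97 and 2.63% lower, so the counts of 0 are a description. The list's median ratio was 0.04, -0.04 and 0.02, beside -0.02, -0.06 and -0.05 over all genes tested. Cbx8, a chromodomain subunit of Polycomb repressive complex 1, stood at 24.2 CPM in Con and 44.9 in SMA in OPC-like cells (0.89, from 0.66 to 1.13), and its ratios were 0.46 and 0.61 in astrocyte-like and ependymal-like cells. Kdm6b, a demethylase of histone H3 lysine 27, had ratios of 0.46, 0.39 and 0.37, all with intervals above 0.

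Noncoding genes at the ends of HoxA differed in opposite directions. Hotairm1, transcribed from the anterior end of the cluster, had 192 UMIs in OPC-like cells of Con and 421 in those of SMA (0.91, from 0.66 to 1.16), and ratios of 0.30 in astrocyte-like and 0.71 in ependymal-like cells. Hoxa11os, antisense to Hoxa11, had 190 and 87 UMIs in OPC-like cells (-1.35, from -1.74 to -0.98) and 111 and 41 in astrocyte-like cells (-1.09). Strand use in the counting is not given in the sources used here, so reads of Hoxa11 and Hoxa11os may not be separable. Hoxb5os was lower in astrocyte-like cells, 41.5 and 25.0 CPM (-0.73). In all, 1 of 4 genes of this list was lower and 1 higher in OPC-like cells, 2 of 7 were lower in astrocyte-like cells, and 1 of 3 was higher in ependymal-like cells. Of all genes, 1.51% were lower and 1.76% higher in OPC-like cells, 2.97% lower in astrocyte-like cells and 2.04% higher in ependymal-like cells. The list's median ratio was 0.26, -0.05 and 0.19.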

How the data were processed

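Single-cell RNA-seq of whole spinal cord had been made by the authors with 10x Genomics 3′ chemistry. The deposited files hold raw UMI counts of each gene in each barcode, for which the authors used Cell Ranger and mm10 per the labels, and Seurat 3.2.2 is named for their later steps. Lowest totals per barcode were 737 (SMA) and 519 (Con) UMIs. Barcodes of the library labelled SMA that were also listed in the library labelled Con were left out. Kept barcodes had 200 to 4000 genes and under 10% of mitochondrial UMIs, and a cluster with a median ribosomal share over 30% was dropped. Doublets were limited by the 4000-gene ceiling only. Cells were clustered by Louvain at resolution 1 (2000 variable genes, 30 components, 20 neighbours, igraph 0.11.9, scikit-learn 1.9.0, scipy 1.17.1), with Hox genes, Smn1 and the listed context genes excluded, and clusters were named from markers. UMIs were summed per library and class. Members and lists were chosen with earlier results of these data known. All Hox genes entered the sums and counts, and values of 1 member and of some listed genes are not reported here. Those with at least 100 UMIs over both libraries in a class and at least 1.5-fold apart were named, as were genes of the context lists, and genes outside the clusters that were 1.5-fold apart in cells with against without a UMI of groups 10 to 13 in both libraries. Values of the fibroblast-like clusters and single-class patterns were picked after they were seen. Gene positions and exon overlaps came from GENCODE M21 by identifier, which matched 39 of 39 members, and the annotation release used by the authors is not given in the sources used here. The ratio script was tested on simulated data. Alternatives were the shared barcodes, the mitochondrial limit, depth, equal cell weights, resolution, overlapping genes, median centring, low members, the leading member and thinning.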

Additional observations from a re-analysis of the deposited data

Results flagged for a closer look

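Hox UMIs were also counted in barcodes outside the comparisons, above what a count of 0 allows. Summed Hox levels were 552 counts per 1000000 UMIs (CPM) in barcodes of the library labelled SMA with a mitochondrial share of 10% or more and 642 in those of the library labelled Con. In barcodes with over 4000 genes they were 461 (SMA) and 451 (Con). The cluster of high ribosomal share in Con, with 1338 barcodes, had 431, and the shared barcodes of the library labelled SMA had 695. Groups 10 to 13 gave 11.5 and 15.8% of Hox UMIs in the barcodes of high mitochondrial share of SMA and Con, 13.1 and 15.1% in those with over 4000 genes, and 16.6% in the shared barcodes of SMA.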

How the results depend on the processing

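No paired analysis was possible because the labels give no replicate numbers and each group is 1 library. Direction was kept in 27 of 27 alternatives of the summed ratios, 24 of 24 of the share differences and 30 of 30 of the group 10 and group 11 ratios, the last added after seeing the data. Values that moved by more than their counting interval follow, and the cause was not tested. Counts of members lower have no such interval, and some that changed are listed too. With the shared barcodes kept, the astrocyte-like summed ratio was -0.0969, the share difference -3.06, the group 10 and 11 ratios -0.43 and -1.25, and the members lower 4. Without genes of overlapping exons, summed ratios were -0.0611 (OPC-like) and -0.0933 (astrocyte-like) and share differences -2.50 and -2.01. Centred on the median gene, the astrocyte-like ratio was -0.0771. Astrocyte-like over microglia-like Hox levels in SMA and Con were 3.67 and 3.87 with shared barcodes, 3.74 and 3.91 at a mitochondrial limit of 20%, 4.07 and 4.20 with equal cell weights and 4.28 and 4.47 at resolution 2. Members lower in OPC-like cells were 1 at the 20% limit and 1 with cells of at least 5000 UMIs. Thinned to 1000 UMIs, Hox-positive shares in SMA and Con were 58.5 and 61.3% (OPC-like), 75.1 and 78.5% (astrocyte-like) and 72.7 and 79.6% (ependymal-like), and ratios of groups 1 to 9 between cells with and without a posterior UMI were 0.0559 (OPC-like, SMA), 0.0141 and 0.19 (astrocyte-like, SMA and Con). Counts of 1 to 125 UMIs per library for single group 11 genes in the 3 neural classes, and 1 library per group, limit what can be said.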

Other observations

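Neuron-like cells were too few to compare (43 in SMA, 26 in Con) but had the highest Hox levels, 1851 and 1885 CPM. Hoxa10 led them with 12.9 and 16.3% of Hox UMIs. Genes that led their cluster included Pkd2l1, Snhg11, Cartpt and Slc32a1, and whether it held motor neurons was not tested. Hoxd10 stood at 56.6 and 83.5 CPM and Hoxd9 at 113 and 159, above their values in each of the 11 compared classes. Groups 10 to 13 gave 26.7% (23.5 to 30.1) and 33.6% (29.5 to 37.9) of their Hox UMIs in SMA and Con. Macrophage-like cells (38 and 65) had 85.1 and 137 and monocyte-like cells (20 and 286) 238 and 114 CPM of Hox genes.

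Pairs of Hox genes were found together in single cells about as often as cell depth gives. Over 222 pairs in OPC-like cells the median of observed over expected cells was 1.06 in SMA and 1.07 in Con, and over 296 pairs in astrocyte-like cells 1.05 and 1.05. Most pairs lay between 0.815 and 1.34 (5th and 95th percentiles over both classes and libraries).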
